A study of Populus ussuriensis with 12 samples.

Results

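The genes described here encode the small-subunit processome, the nucleolar particle that folds and cuts the precursor of ribosomal RNA on the way to the small (40S) ribosomal subunit. They were picked out by an annotation rule, which was set with earlier results of these data known. Of 35747 genes in the deposited table, 55 carried the cellular component term small-subunit processome. One of these, described as a 40S ribosomal protein, was left out, 0 carried the term spliceosomal complex, and 54 genes remained. They stand for 30 different proteins, because 19 of the proteins had 2 or more annotated genes. In the same annotation field 43 of the 54 also carried the term nucleolus, which is not independent of the rule.

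In eukaryotes the processome assembles on the precursor while RNA polymerase I is still transcribing it. The U3 small nucleolar ribonucleoprotein (U3 snoRNP) pairs with the precursor, the UTP-A and UTP-B complexes dock on its leading spacer and on U3, and the MPP10 group, methyltransferases, nucleases and helicases then join. Most functions below are known from budding yeast. In plants, genes of this machinery are best known from mutants with impaired gametes, embryos or leaf shape, and their transcripts are usually abundant in growing tissue.

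Leaf messenger RNA was sequenced from the poplar Populus ussuriensis in 4 groups of 3 libraries: wild type (WT) watered, WT drought, Pu-miR172d-OE (OE) watered and OE drought. OE plants overexpress Pu-miR172d, of a family of microRNAs that represses APETALA2-type transcription factors. Plants of all groups were 70 days old, grown in pots of soil, and drought meant no watering for 4 days. The leaves were the 7th and 8th from the tip. The labels name neither the promoter of the transgene nor the number of independent lines. Watered replicates are numbered 1 to 3 and drought replicates 4 to 6. No label says whether they came from separate plants, and the p-values therefore reflect variation among these libraries that could be technical.

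Values are FPKM, that is fragment counts divided by gene length and library size. Library totals, worked out from the smallest steps in those values, ran from 9682111 to 10710916 fragments in watered and from 11602784 to 12131416 in drought libraries. The leaf label was met: 28 of 29 annotated genes for the Rubisco small chain and chlorophyll-binding proteins were above 0 in every watered library. Across the genome drought against watered was the leading axis, with 77.3% of the variance on the first principal component. OE drought replicates 4 and 6 were the closest pair within any group, and WT drought replicate 6 was the least like its group, with correlations of 0.922 and 0.929 to the other two.

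Of the 54 processome genes, 48 passed the filter of 1 FPKM in at least 3 of the 12 libraries and were tested among 25373 genes. The 42 that reached it in all 12 libraries do not depend on the group in which they were high. The 6 below the filter held at most 15 fragments in any library, and each was an extra copy of a protein whose other gene was tested: UTP6 (Potri.005G135200), UTP11 (Potri.006G026001), UTP18 (Potri.002G044632), UTP21 (Potri.018G148066), UTP23 (Potri.009G159400) and fibrillarin (Potri.012G110000). Median FPKM over the 48 tested genes was 4.42 in WT watered, 8.46 in WT drought, 5.16 in OE watered and 6.54 in OE drought leaves. SNU13, a small protein that binds a bend in U3 RNA and also belongs to a spliceosomal particle, had the highest mean (89.6 FPKM over 12 libraries). The fibrillarin gene Potri.015G147500 (55.97), KRR1 (39.8), the NOP56 gene Potri.015G092900 (28.7) and the UTP11 gene Potri.016G024300 (24.5) followed.

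In wild-type leaves the processome genes rose together under drought. Of the 48 tested, 41 were higher and 0 lower at an adjusted p under 0.05 (limma, Benjamini-Hochberg over all tested genes). Over all tested genes 33.9% were called higher and 21.7% lower. Among the 42 genes at the filter in all libraries, 38 were higher. The median change was 0.79 on the log2(FPKM + 1) scale, beside 0.25 over all tested genes, and all 48 estimates were positive under every alternative run. In 43 of the 48 the 3 drought libraries lay wholly above the 3 watered ones, as they did in 38.5% of all genes. Summed over the 54 genes, the level was 431, 407 and 423 FPKM in the watered and 875, 724 and 696 FPKM in the drought libraries. In whole leaves, a change in the mix of cells and a change in RNA per cell cannot be told apart.

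Values moving alongside this rise are large. The 29 Rubisco small chain and chlorophyll-binding genes summed to 38435 to 47002 FPKM in watered WT libraries and to 2270 to 4038 FPKM in those under drought, with 24 of 26 tested genes lower. Because FPKM is a share of each library, the scaling matters: with factors from the median of ratios, the median over all genes went from 0.25 to 0.01, that of the processome genes from 0.79 to 0.51, and 30 of the 48 were called higher, against 22.4% of all genes. Of all genes called, 61.0% were higher, and 45.1% after that scaling. The part of the leaf transcripts in the result was not tested beyond this. Of the 41 calls, 30 held under each of 21 alternatives. The others were SNU13, KRR1, LCP5, UTP23 (Potri.004G197200), and copies of fibrillarin (Potri.012G144800), EMG1 (Potri.006G040600), FCF1 (Potri.002G166200), IMP3 (Potri.004G113600), SOF1 (Potri.007G137300), UTP14 (Potri.014G128300) and UTP18 (Potri.002G044566).

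**Figure D1:**
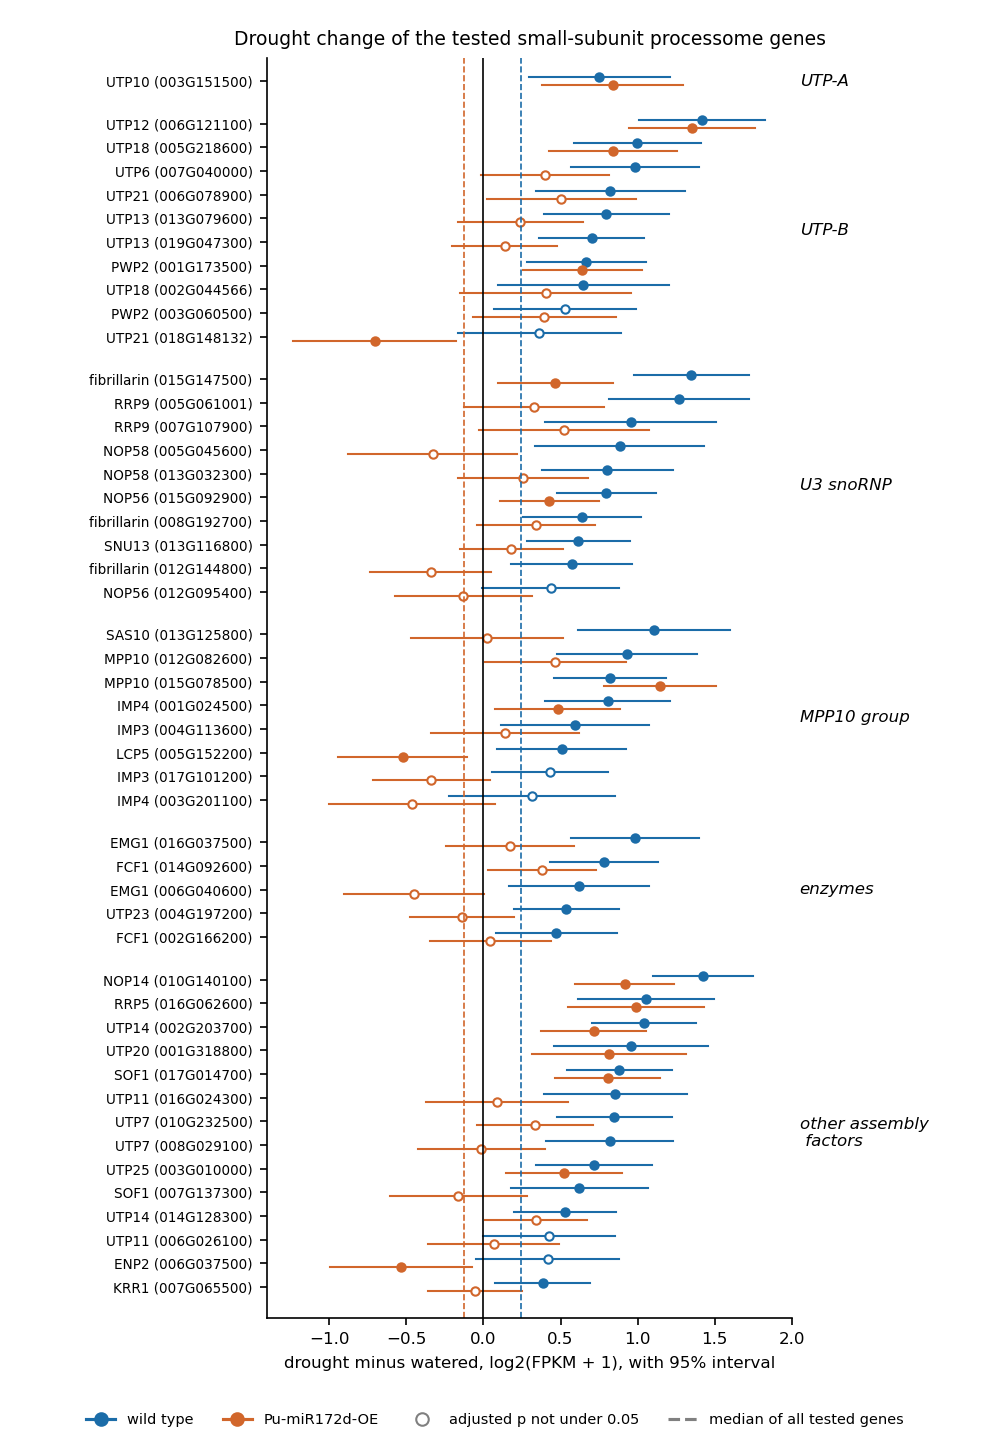
Drought minus watered on the log2(FPKM + 1) scale (x axis) for the 48 tested processome genes (y axis, grouped by role) in wild type (blue) and Pu-miR172d-OE (orange). Points are estimates, bars 95% intervals, open points missed the adjusted threshold, and dashed lines mark the median of all 25373 tested genes. Every blue point lies right of 0, and 41 are filled, while the orange points spread from -0.71 to 1.35.

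Among the UTP complexes, UTP12 rose steeply in both genotypes. UTP12 (Potri.006G121100, chromosome 6, 9623086 to 9631589, minus strand in the authors' table) is a WD-repeat scaffold of UTP-B. Its FPKM was 3.22, 2.81 and 2.76 in WT watered and 11.8, 6.95 and 10.4 in WT drought libraries. In OE it was 2.92, 3.63 and 2.73 when watered and 9.11, 9.52 and 9.58 under drought. The groups did not overlap in either genotype, and the change was 1.42 ± 0.19 in WT (SE, adjusted p = 7.62e-05) and, for OE, 1.35 ± 0.19 (adjusted p = 6.22e-05).

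Of the 10 tested UTP-B genes, 8 were higher in WT drought (median 0.75), among them UTP18 (Potri.005G218600, 1.00 ± 0.19, adjusted p = 0.000969) and UTP6 (Potri.007G040000, 0.98 ± 0.19, adjusted p = 0.00111). For this role and those below, 33.9% of all tested genes were higher there, with a median of 0.25. The PWP2 gene Potri.003G060500 (adjusted p = 0.0506) and the UTP21 gene Potri.018G148132 (adjusted p = 0.217) missed the threshold. UTP-A was represented by a single annotated gene, UTP10 (Potri.003G151500), a very long protein of helical repeats whose gene model measured 6968 bases. UTP10 stood at 3.74, 2.93 and 3.31 FPKM in WT watered and 6.24, 4.52 and 8.55 in WT drought leaves. In OE the values were 2.77, 3.67 and 3.19, then 6.96, 5.43 and 7.28. It rose in both, by 0.75 ± 0.21 (adjusted p = 0.00971) and 0.84 ± 0.21 (adjusted p = 0.00417).

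Proteins of the U3 snoRNP were higher in WT drought for 9 of 10 tested genes (median 0.80), against 33.9% of all tested genes. The 9 include the weak fibrillarin gene Potri.008G192700, which also counts among the 41 calls and the 30 that held. It reached 1 FPKM in 0 WT watered, 0 OE watered, 3 WT drought and 2 OE drought libraries. Its entry into the test thus came through the groups where it was high, and its call gives no separate support. Fibrillarin is the methyltransferase of box C/D particles, and the authors' table describes its genes by their Mediator subunit name while the orthologue column gives fibrillarin. The main copy, Potri.015G147500 (chromosome 15, 15193034 to 15196468), had 35.6, 35.6 and 38.9 FPKM in WT watered and 121, 93.1 and 75.8 FPKM in WT drought libraries, a change of 1.35 ± 0.17 (adjusted p = 5.86e-05). In OE it went from 34.7, 35.9 and 43.4 to 51.3, 53.6 and 52.9 FPKM, a change of 0.46 ± 0.17 (adjusted p = 0.032). All OE drought values thus lay below the lowest WT drought value and above every watered one. RRP9, the U3-specific WD-repeat protein, was low in watered leaves and rose through both copies in WT: Potri.005G061001 went from 1.55, 1.59 and 1.18 to 6.64, 4.06 and 4.21 FPKM (1.27 ± 0.21, adjusted p = 0.000368).

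NOP56 and NOP58 form the paired core of the same particle. Both NOP58 copies rose in WT, by 0.88 ± 0.25 (Potri.005G045600, adjusted p = 0.0106) and 0.80 ± 0.19 (Potri.013G032300, adjusted p = 0.00433). Of the NOP56 copies, Potri.015G092900 rose (0.80 ± 0.15, adjusted p = 0.000792), whereas Potri.012G095400 stood at 0.44 ± 0.20 (adjusted p = 0.0856). SNU13 went from 74.7 ± 2.53 to 115 ± 8.48 FPKM (SD, n = 3; 0.62 ± 0.15, adjusted p = 0.00494), a call that was lost under median-of-ratios scaling (adjusted p = 0.117).

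**Figure D2:**
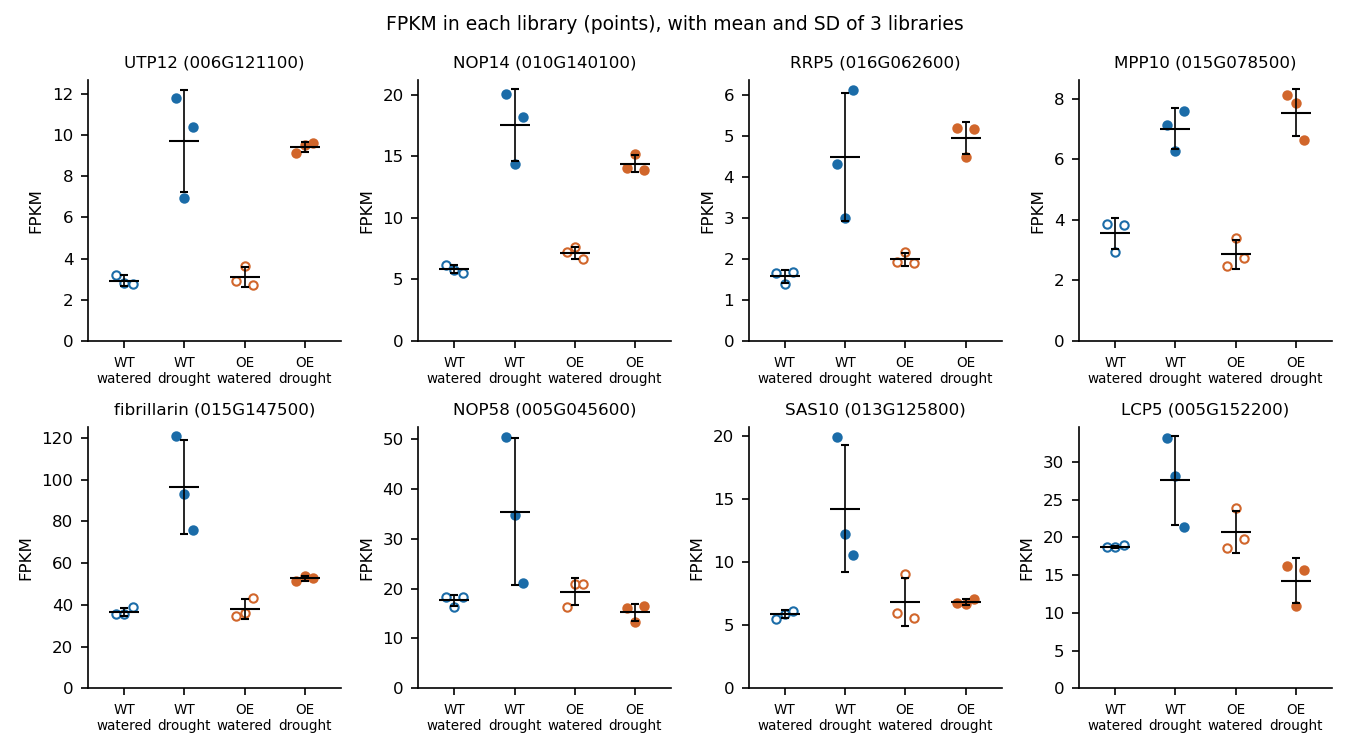
FPKM (y axis, from 0) in each library for 8 processome genes in the 4 groups (x axis). Open points are watered and filled points drought libraries, blue is wild type and orange Pu-miR172d-OE, and the black bar shows the mean and SD of 3 libraries. In the upper row the drought groups of both genotypes lie above the watered ones, and in the lower row the OE drought libraries lie below the WT drought libraries.

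The MPP10 group holds the complex of MPP10, IMP3 and IMP4 that steadies the pairing of U3 with the precursor, together with SAS10 and LCP5, which share a domain known to bind MPP10. Here 6 of 8 tested genes were higher in WT drought (median 0.70), against 33.9% of all tested genes. SAS10 (Potri.013G125800) went from 5.53, 5.91 and 6.15 to 19.98, 12.3 and 10.6 FPKM in WT (1.11 ± 0.23, adjusted p = 0.00155). In OE it read 5.98, 9.05 and 5.55 when watered and 6.75, 6.67 and 7.11 under drought, so that the groups overlapped (0.02 ± 0.23, adjusted p = 0.936). The MPP10 gene Potri.015G078500 rose in both genotypes: from 3.88, 2.95 and 3.82 to 7.14, 6.28 and 7.60 FPKM in WT (0.82 ± 0.17, adjusted p = 0.00147), and from 2.47, 3.40 and 2.73 to 8.11, 7.85 and 6.64 FPKM in OE (1.15 ± 0.17, adjusted p = 8.84e-05).

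Against 33.9% of all tested genes, all 5 tested genes for enzymes were higher in WT drought (median 0.62). These are EMG1, which methylates a modified base of the small-subunit RNA, FCF1, the nuclease known in yeast as Utp24, and its relative UTP23. EMG1 was highest, with Potri.016G037500 going from 10.05, 8.02 and 10.8 to 23.6, 21.3 and 15.6 FPKM (0.98 ± 0.19, adjusted p = 0.00105). Its second copy, Potri.006G040600, changed by 0.62 ± 0.21 (adjusted p = 0.0245).

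Among the other assembly factors 12 of 14 were higher in WT drought (median 0.83), against 33.9% of all tested genes. NOP14, which in yeast binds EMG1 and NOC4, had 6.21, 5.79 and 5.56 FPKM in WT watered and 20.1, 14.4 and 18.2 FPKM in WT drought leaves (Potri.010G140100, chromosome 10, 15225130 to 15232189), and it showed the steepest rise of all members (1.42 ± 0.15, adjusted p = 1.35e-05). RRP5, a protein of many RNA-binding repeats needed for both subunits, went from 1.66, 1.38 and 1.69 to 4.33, 3.01 and 6.13 FPKM (Potri.016G062600, 1.05 ± 0.20, adjusted p = 0.00103). UTP14, which in yeast activates the helicase that removes U3, changed by 1.04 ± 0.15 (Potri.002G203700, adjusted p = 0.000185). The 7 WT-higher genes at a log2 change of at least 1 were NOP14, UTP12, fibrillarin Potri.015G147500, RRP9 Potri.005G061001, SAS10, RRP5 and UTP14 Potri.002G203700; 15.6% of all tested genes were called higher at that size, so the members' count there was near the background. KRR1, abundant in every group, moved least among the 41 called (35.1 ± 1.76 to 46.2 ± 2.78 FPKM, SD, n = 3; 0.38 ± 0.14, adjusted p = 0.0347).

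In Pu-miR172d-OE leaves fewer processome genes passed. Under drought 14 of 48 were higher and 3 lower, against 27.8% and 35.0% of all tested genes, so the count higher was near the background and the count lower well under it. The median change was 0.33, beside -0.13 over all tested genes, and drought libraries lay wholly above watered ones for 21 of 48 members (30.7% of all genes). The summed level was 406, 507 and 459 FPKM in watered and 558, 515 and 539 FPKM in drought leaves. Median-of-ratios scaling gave 22 higher and 2 lower, against 31.5% and 33.4% of all genes. Among the 42 members at the filter in all libraries, 14 were higher and 1 lower.

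The 14 genes that rose in OE were all among the 41 that rose in WT. Besides UTP12, MPP10 and UTP10 they were RRP5 (0.99 ± 0.20, adjusted p = 0.00111), NOP14 (0.91 ± 0.15, adjusted p = 0.000207), UTP18 (0.84 ± 0.19, adjusted p = 0.00218), UTP20 (0.81 ± 0.23, adjusted p = 0.00831), SOF1 (Potri.017G014700), UTP14 (Potri.002G203700), PWP2 (Potri.001G173500), UTP25, IMP4 (Potri.001G024500), fibrillarin (Potri.015G147500) and NOP56 (Potri.015G092900). By role they comprised the only UTP-A gene, 3 of 10 UTP-B genes, 6 of 14 other assembly factors, 2 of 8 in the MPP10 group, 2 of 10 of the U3 snoRNP and 0 of 5 enzymes. The share of all tested genes was 27.8%, and the difference between roles was not tested. UTP20 is the longest gene model among the members (9238 bases), a helical-repeat scaffold like UTP10, and its call was lost after centring by gene length (adjusted p = 0.0537). Of the 17 OE calls in both directions, 9 held under each of 21 alternatives: UTP12, MPP10, RRP5, NOP14, UTP10, UTP18, SOF1, UTP14 and PWP2. The fibrillarin call held under 15 of 21, with an adjusted p of up to 0.104.

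The 3 genes lower in OE drought were the UTP21 gene Potri.018G148132 (-0.71 ± 0.24, adjusted p = 0.023), ENP2 (Potri.006G037500, -0.53 ± 0.21, adjusted p = 0.044) and LCP5 (-0.52 ± 0.19, adjusted p = 0.032). That UTP21 gene passed the filter through 2 WT drought libraries and 1 OE watered library, where it was high, and ENP2 reached it in 8 of 12 libraries. The UTP21 and ENP2 calls rested on 1 to 16 and 2 to 14 fragments per library, and 0 of the 3 calls remained after length centring. LCP5 (Potri.005G152200, chromosome 5, 14306080 to 14308790), known in animals as neuroguidin, is abundant and was the one gene called in opposite directions. It stood at 18.7, 18.7 and 19.0 FPKM in WT watered and 33.1, 28.2 and 21.4 FPKM in WT drought leaves (0.51 ± 0.19, adjusted p = 0.0398). In OE it was 18.6, 23.9 and 19.8 FPKM watered and 16.3, 10.9 and 15.7 FPKM under drought. The OE call was lost without OE drought replicate 5, OE watered replicate 2 or OE watered replicate 3 (adjusted p = 0.124, 0.108 and 0.0542). The WT call was lost without any one WT library other than drought replicate 6 (adjusted p from 0.0799 to 0.15).

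**Figure D3:**
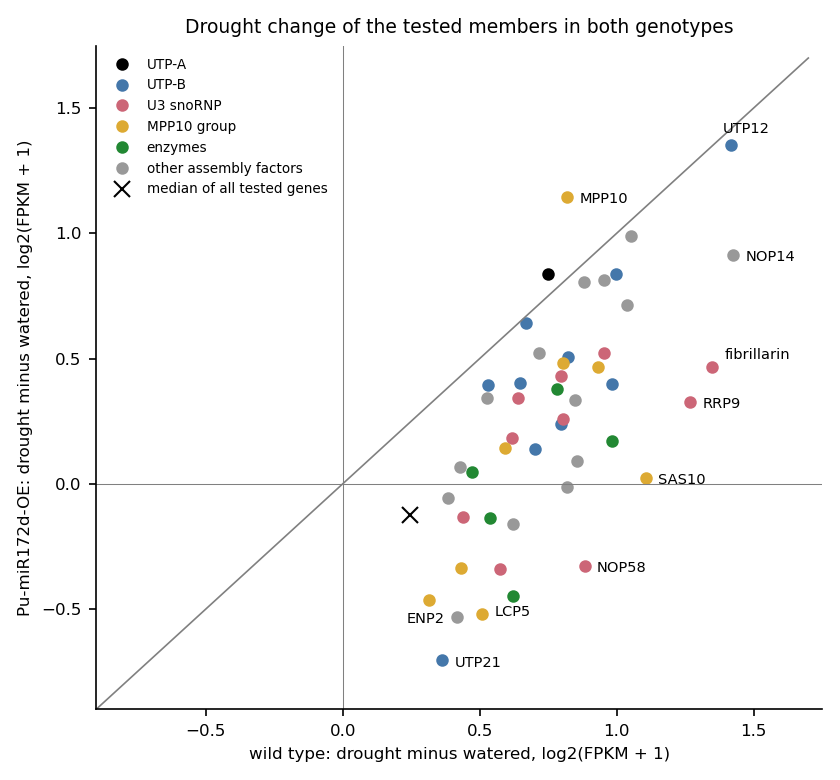
Drought change of each tested member in wild type (x axis) against Pu-miR172d-OE (y axis), both drought minus watered on the log2(FPKM + 1) scale, coloured by role; the line marks equal change and the cross the median of all tested genes. For 46 of 48 members the WT change was the larger, and MPP10 (Potri.015G078500) and UTP10 lie above the line. The share of all tested genes was not counted, but their median OE minus WT change was also below 0 (-0.28). With median-of-ratios scaling the OE change was the larger for 16 of 48 members.

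Genotype made no detectable difference to these genes in watered leaves. With OE against WT watered, 0 of 48 were higher and 0 lower (limma), against 0.0985% and 0.0394% of all tested genes. At an unadjusted p under 0.05 there was 1 member, ENP2 (0.55 ± 0.21, adjusted p = 0.475), and limma's voom on recovered fragments also called 0. Summed FPKM was 420 ± 12.6 in WT and 457 ± 50.7 in OE watered leaves (SD, n = 3).

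Under drought 14 of 48 members were lower and 0 higher in OE than in WT leaves, against 20.4% of all tested genes lower. Among the 42 members at the filter in all libraries, 12 were lower. The 14 comprised 5 of 10 U3 snoRNP genes, 4 of 8 in the MPP10 group and 3 of 5 enzymes, but 1 of 10 UTP-B genes and 1 of 14 other assembly factors. That UTP-B gene, UTP21 Potri.018G148132, reached the filter in 2 WT drought, 1 OE watered and 0 OE drought libraries. It held 1 to 16 fragments per library. Its entry into the test came through groups where it was high, and its call gives no separate support. The median difference was -0.38, beside -0.24 over all tested genes, and OE drought libraries lay wholly below WT drought ones for 24 of 48 members (31.6% of all genes). Summed FPKM was 765 ± 95.98 in WT and 537 ± 21.2 in OE drought leaves (SD, n = 3). The difference between roles was not tested, and the members in the longest of 5 gene length classes had a median difference of -0.08, beside -0.66 and -0.71 in the classes next above the shortest.

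NOP58 (Potri.005G045600) differed most among the 14: 50.5, 34.8 and 21.05 FPKM in WT drought against 16.0, 13.2 and 16.5 in OE drought leaves (-1.09 ± 0.25, adjusted p = 0.00903). WT drought replicate 6 was the lowest of its group here and still above every OE drought library. EMG1 (Potri.006G040600) read 15.8, 11.97 and 10.8 FPKM in WT against 5.81, 3.96 and 7.71 in OE (-1.04 ± 0.21, adjusted p = 0.00493). SAS10 differed by -0.91 ± 0.23 (adjusted p = 0.0122) and LCP5 by -0.90 ± 0.19 (adjusted p = 0.00646).

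Both abundant fibrillarin genes were lower in OE drought: Potri.015G147500 by -0.84 ± 0.17 (adjusted p = 0.00531) and Potri.012G144800 by -0.89 ± 0.18 (adjusted p = 0.00517). The latter had 25.1, 26.3 and 21.6 FPKM in WT drought and 13.4, 10.001 and 15.1 FPKM in OE drought leaves. Those 2 genes were the only members called under each of 22 alternatives. The other 8 of the 14 were IMP4 (Potri.003G201100), RRP9 (Potri.005G061001), EMG1 (Potri.016G037500), UTP21 (Potri.018G148132), UTP23 (Potri.004G197200), SOF1 (Potri.007G137300), IMP3 (Potri.017G101200) and NOP56 (Potri.015G092900).

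These counts depended on scaling and on single libraries. Median-of-ratios scaling moved the median over all genes from -0.24 to -0.03 and that of the members from -0.38 to -0.11, and left 6 of the 14 members lower, near the 10.1% of all genes lower there, with 18 of 48 estimates above 0; of all genes called, 31.1% were higher, and 60.1% after that scaling. The count was 7 without WT drought replicate 4, 9 without OE drought replicate 5, and 3 when only the 2 drought groups entered the fit. Of all 25373 tested genes, 2562, 2706 and 1717 were lower in those fits, against 5176 in the main fit, so the calls fell across the genome too.

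The test of the difference in drought response (the genotype by drought interaction) called 6 of 48 members, all with a smaller or opposite response in OE; with 10.5% of all tested genes called in that direction, the count was near the background. They were NOP58 Potri.005G045600 (-1.21 ± 0.35, adjusted p = 0.0415), SAS10 (-1.08 ± 0.32, adjusted p = 0.0425), EMG1 Potri.006G040600 (-1.07 ± 0.30, adjusted p = 0.0343), LCP5 (-1.03 ± 0.27, adjusted p = 0.0294) and the fibrillarin genes Potri.012G144800 (-0.91 ± 0.25, adjusted p = 0.035) and Potri.015G147500 (-0.88 ± 0.24, adjusted p = 0.0335). The OE against WT drought comparison shares its drought libraries with the interaction. Length centring also shifts whole libraries, so it is no check separate from median-of-ratios scaling. After either setting the same 6 genes were those left in that comparison. Their interaction calls were close to the threshold: 0 remained under median-of-ratios scaling, where the median interaction over all genes went from -0.28 to 0.04, and over the fits without 1 library the count ran from 0 (without WT watered replicate 1 or 2, OE watered replicate 2, WT drought replicate 4 or OE drought replicate 5) to 12 (without WT drought replicate 6). Of all 25373 tested genes, 2659 were called lower for the interaction in the main fit. That number was 819 to 1596 in the fits with 0 members and 4794 in the fit with 12. For UTP12 the interaction was -0.07 ± 0.26 and for RRP5 -0.07 ± 0.28.

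Gene length went along with the members' response in OE and with their genotype difference. Gene models were divided into 5 classes of equal size by length. Over all tested genes the median OE drought change was -0.27, -0.32, -0.18, -0.07 and 0.17 from the shortest to the longest class. Members in the same classes (5, 11, 7, 12 and 13 genes) had medians of 0.14, 0.05, 0.14, 0.16 and 0.71, each above that of all genes. In WT the medians over all genes were 0.20, 0.21, 0.21, 0.25 and 0.33, and those of the members 0.62, 0.57, 0.70, 0.83 and 0.82. Across the 48 members, drought change and the log2 of gene length had a Pearson correlation of 0.57 in OE and 0.37 in WT. For the OE against WT drought difference it was 0.51. Over all 25373 tested genes the same correlations were 0.06, 0.02 and 0.05. They are descriptions across genes, which are not independent. The mean gene length weighted by fragments was 1944 to 2013 bases in watered libraries, 2132 to 2219 in OE drought and 1998 to 2240 in WT drought libraries, with the highest value in WT drought replicate 6. Its part in the results was not tested beyond the length centring. Under that setting 23 members were higher and 0 lower in OE drought, against 32.0% and 32.3% of all genes. The centring takes the median of each of 20 length classes off every library, and so also shifts each library as a whole. It therefore cannot tell gene length from scaling.

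**Figure D4:**
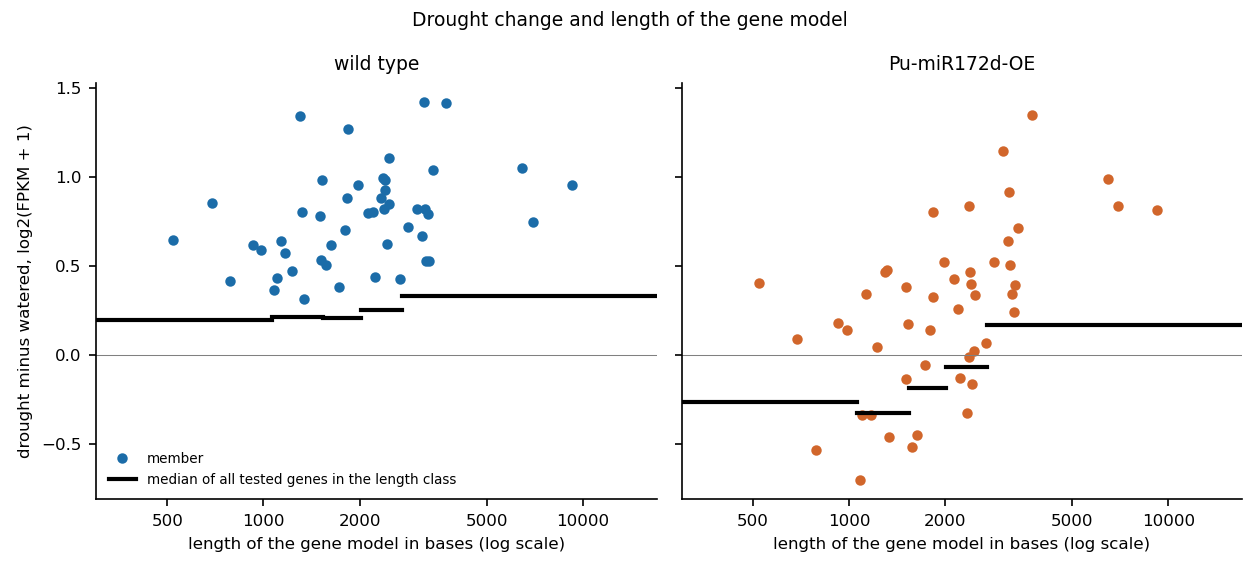
Drought minus watered on the log2(FPKM + 1) scale (y axis) against the length of the gene model in bases (x axis, log scale) for the 48 tested members in wild type (left) and Pu-miR172d-OE (right). Black lines give the median of all tested genes in each of 5 length classes, which runs from -0.32 to 0.17 in OE, and the 13 members in the longest class have a median of 0.71 there.

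Copies of the same protein often differed in level and in response. The first copy held more than 75% of the summed FPKM in 7 of the 19 sets, as for UTP23 (98.5%), UTP6 (97.8%), UTP11 (94.3%) and SOF1 (90.9%). IMP4 is a case of split behaviour: Potri.001G024500 was higher in drought, by 0.81 ± 0.19 in WT (adjusted p = 0.00334) and by 0.48 ± 0.19 in OE (adjusted p = 0.0398), whereas Potri.003G201100 stood at 0.32 ± 0.25 (adjusted p = 0.293) and -0.46 ± 0.25 (adjusted p = 0.121). SOF1, known in animals as DCAF13, showed it in OE, where Potri.017G014700 rose from 11.1, 14.6 and 11.4 to 21.4, 24.1 and 21.2 FPKM (0.81 ± 0.16, adjusted p = 0.000787) and the weak copy Potri.007G137300 read 1.15, 1.93 and 1.64, then 1.22, 1.10 and 1.55 FPKM. Differences between copies were not tested, and no source used here tells how the authors' counting shared reads between near-identical copies.

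Some members may be pieces of a gene. The UTP21 models Potri.018G148066 and Potri.018G148132 lie 653 bases apart on the plus strand of chromosome 18, and the UTP18 models Potri.002G044566 and Potri.002G044632 lie 175 bases apart on the minus strand of chromosome 2. All 4 were weak, at 0.21 to 2.37 FPKM on average. The UTP11 entries Potri.006G026001 and Potri.006G026100 overlap on opposite strands, and the library kit does not mark strand. The second of them carries the UTP11 description with an E-value of 5e-08 but an orthologue entry for an oxidoreductase, so its annotations disagree.

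Some processome proteins do not carry the term. Of 13 tested genes in a list for UTP4, UTP5, UTP15, UTP17, UTP22, NOC4, RCL1, BMS1 and RRP7, 9 were higher and 0 lower in WT drought (median 0.71). There 33.9% of all tested genes were higher and 21.7% lower. In OE drought 5 were higher and 0 lower (median 0.28), where 27.8% of all tested genes were higher and 35.0% lower. UTP17, a UTP-A protein with WD repeats, rose in both genotypes: Potri.018G091100 went from 1.18 ± 0.05 to 5.03 ± 1.66 FPKM in WT (1.43 ± 0.22) and from 1.10 ± 0.23 to 4.04 ± 0.73 in OE (1.26 ± 0.22). RCL1 is the cyclase-like partner of the GTPase BMS1, and both of its copies rose in WT. Of them, Potri.001G216400 went from 4.25 ± 0.24 to 9.95 ± 0.91 FPKM in WT and stood at 6.73 ± 1.44 and 6.96 ± 0.48 FPKM in OE, with an interaction of -1.002 ± 0.23 (adjusted p = 0.018).

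Other steps of ribosome assembly, and the spliceosomal complex as a list outside it, are given for scale. In WT drought, where 33.9% of all tested genes were higher, 35 of 50 large-subunit precursor genes were higher and 1 lower. Higher, with 0 lower, were 9 of 9 genes of the box H/ACA particle, 6 of 9 late 40S factors and 8 of 15 exosome genes. So were 7 of 16 genes in the RNA polymerase I list and 2 of 2 nucleolin genes. The polymerase list includes subunits shared with other polymerases and a gene described as a subunit of polymerases IV and V. Cytosolic ribosomal proteins were higher for 194 of 301 genes and lower for 1 in WT drought, where 21.7% of all tested genes were lower. In OE drought, where 27.8% of all tested genes were higher and 35.0% lower, the ribosomal proteins split into 26 higher and 44 lower, the H/ACA genes showed 1 higher, and the large-subunit genes 13 higher and 3 lower. OE drought leaves were below WT drought leaves for 20.4% of all tested genes, and for 173 of 301 ribosomal protein genes, 8 of 9 H/ACA genes and 15 of 50 large-subunit genes. Of 165 tested spliceosomal complex genes, 91 were higher and 3 lower in WT drought, and 45 were higher and 24 lower in OE drought. OE drought leaves were below WT drought leaves for 35 of them and above for 5. The WT rise was thus not particular to ribosome assembly. A list is described here by its counts, and no list was tested as a whole.

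**Figure D5:**
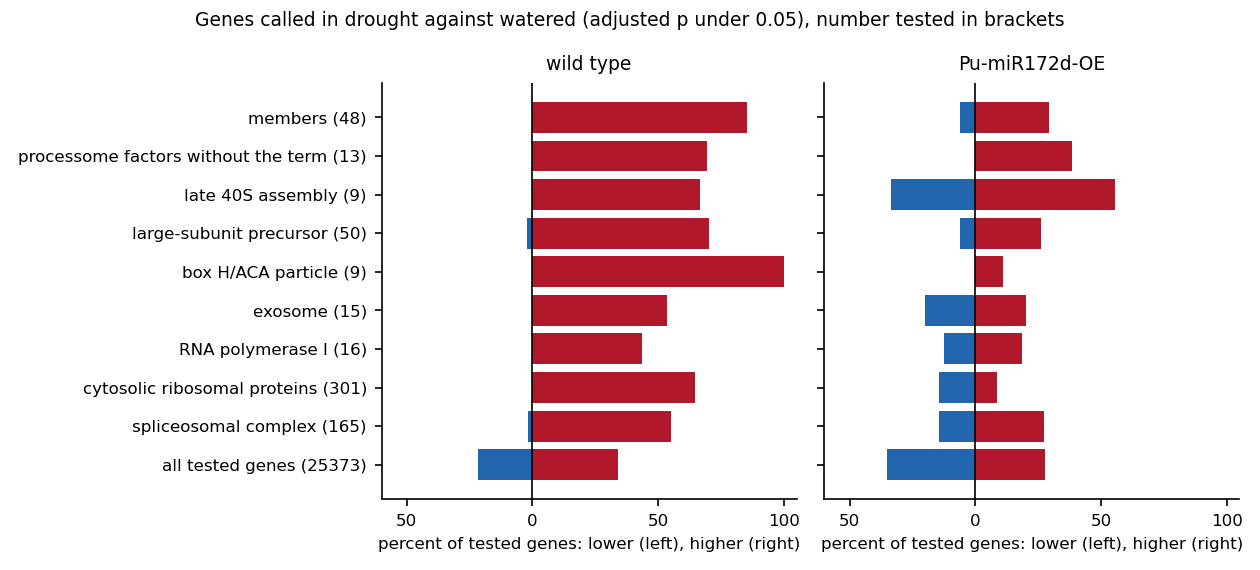
Percent of tested genes called higher (red, right) or lower (blue, left) in drought against watered leaves (x axis), in wild type (left panel) and Pu-miR172d-OE (right panel). Rows are the members, other lists of ribosome assembly, the spliceosomal complex and all tested genes, with the number tested in brackets. In wild type 41 of 48 members were higher and 0 lower, and in OE 14 were higher and 3 lower.

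Markers of other cells and cell states were more often lower than higher under drought. For scale, 33.9% of all tested genes were higher and 21.7% lower in WT drought, and 27.8% were higher and 35.0% lower in OE drought. Of 86 tested genes for cyclins, histones and replication factors, 7 were higher and 43 lower in WT drought, and 8 were higher and 62 lower in OE drought. Their 111 genes summed to 2821 to 3299 FPKM in watered and 1943 to 3409 FPKM in drought libraries of WT, and for OE the ranges were 2992 to 3698 and 1820 to 1964 FPKM. Xylem markers were lower for 15 of 16 genes in WT and 12 of 16 in OE, with 0 higher in either, and 8 of 19 were at 0 in every OE drought library. Phloem markers were higher for 3 and lower for 14 of 27 in WT drought, and higher for 1 and lower for 16 in OE drought, while their summed level was 446 ± 42.1 and 672 ± 432 FPKM in watered and drought WT leaves and, for OE, 537 ± 63.9 and 487 ± 114 FPKM (SD, n = 3). Of 9 epidermis and guard cell markers 3 were lower in WT and 7 in OE, and of 2 meristem markers 0 and 2. Leaf markers in OE summed to 26302 to 38103 FPKM in watered and 198 to 1135 FPKM in drought libraries, with 25 of 26 lower.

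Some of these markers were also lower in OE than in WT drought leaves, as the 14 members were. This held for 23 of 26 leaf markers, 23 of 86 markers of dividing cells (with 1 higher), 2 of 2 meristem markers, 3 of 9 of epidermis and guard cells (with 1 higher), 2 of 27 of phloem and 1 of 16 of xylem, against 20.4% of all tested genes. The interaction called 7 of 26 leaf markers and 6 of 86 markers of dividing cells (with 1 higher) lower, against 10.5% of all tested genes. It also called 3 of 9 markers of epidermis and guard cells (with 1 higher) and 2 of 27 of phloem lower. For xylem and meristem markers 0 of 16 and 0 of 2 were called lower. The part of these markers in the genotype difference was not tested.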

How the data were processed

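The authors deposited FPKM values per gene with annotations. HISAT2 2.1.0 and Bowtie2 2.2.3 appear, with no role, in the submitters' processing notes; genome build and counter were not given in the sources used here. Positions come from the authors' table. FPKM steps gave whole fragments (tolerance 0.02) for 35747 of 35747 genes, and so library totals and gene lengths; they cover counting error only. Genes with at least 1 FPKM in 3 of 12 libraries (25373) were fitted as log2(FPKM + 1) with limma 3.58.1 in R 4.3.3, as 4 group means (8 residual degrees of freedom) with a variance trend; ± after a change is its SE. Benjamini-Hochberg adjustment ran over all tested genes of a contrast, at a threshold of 0.05. A fold change on this scale understates that of weak genes. The fit was tested on simulated data with the same relative spread for all genes and few changed genes. That test cannot show how the calls depend on scaling. Members, roles and lists were chosen with earlier results of these data known. Short names follow the orthologue column. Named were up to 10 members called per direction and comparison, the 5 most abundant, diverging copies and core complexes; genes named beyond this were chosen after their values were seen. Alternatives were pseudocount, filter, scaling, voom on recovered fragments, left-out libraries, a replicate block and, added after seeing the data, length centring and merging of OE drought replicates 4 and 6. A second, partial FPKM table was not used.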

Additional observations from a re-analysis of the deposited data

Results flagged for a closer look

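For 6 of 48 processome genes, near the 10.5% of all tested genes called in that direction, the drought response differed between genotypes by the interaction test (limma, adjusted p under 0.05; OE response minus WT response, log2 scale, 3 libraries a group). NOP58 (Potri.005G045600) differed by -1.21, SAS10 (Potri.013G125800) by -1.08, EMG1 (Potri.006G040600) by -1.07, LCP5 (Potri.005G152200) by -1.03, and the fibrillarin genes Potri.012G144800 by -0.91 and Potri.015G147500 by -0.88. In each, the 3 OE drought libraries lay below the 3 WT drought libraries. Of these 6 calls 0 held under each of 21 alternatives. The adjusted p over the alternatives ranged from 0.0024 to 0.108 for NOP58, from 0.0133 to 0.123 for SAS10, from 0.0167 to 0.0816 for EMG1, from 0.0066 to 0.0745 for LCP5, from 0.018 to 0.261 for fibrillarin Potri.012G144800 and from 0.0054 to 0.202 for fibrillarin Potri.015G147500. Over the same alternatives the differences closest to 0 were -0.81 for NOP58, -0.70 for SAS10, -0.68 for EMG1, -0.63 for LCP5, -0.37 for fibrillarin Potri.012G144800 and -0.38 for fibrillarin Potri.015G147500.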

How the results depend on the processing

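Requiring a log2 change of at least 1 left 7 of 48 members higher in WT drought (15.6% of all 25373 tested genes). It left 2 of 48 higher and 0 lower in OE drought (4324 and 6135 of the 25373). In OE against WT drought 2 of 48 were lower (2078 of the 25373), so none of these counts exceeded the background at that size. For the interaction 4 of 48 were lower (2051 of the 25373), near the background. Median-of-ratios scaling gave 22 higher in OE drought, 6 lower in OE against WT drought and 0 for the interaction. Shares of all genes there were 31.5% and 10.1%, with 1052 genes lower for the interaction. Length centring also shifts whole libraries. It gave 23 higher and 0 lower in OE drought, 6 lower in OE against WT drought and 0 for the interaction. Here the shares of all genes were 32.0%, 32.3% and 10.1%, with 1005 genes lower for the interaction. Fitting only the groups compared left 3 lower in OE against WT drought (1717 of all genes). Merging OE drought replicates 4 and 6 left 1 lower in OE drought (8441 of all genes) and 3 for the interaction (2060 of all genes). Leaving out 1 library in turn gave 33 to 43 higher in WT drought, and 10 to 16 higher and 0 to 4 lower in OE drought. It gave 7 to 14 lower in OE against WT drought and 0 to 12 for the interaction. Over all tested genes the same ranges were 6644 to 8956, 6051 to 7431, 7704 to 9317, 2562 to 6269 and 819 to 4794. Deviations of same-numbered libraries of the 2 genotypes correlated at -0.497 to 0.218. With 3 libraries a group these values cannot tell whether the numbers pair samples, and no label says so. With the replicate block 12 members were lower in OE against WT drought, where 4540 of all genes were lower. In that fit 0 members passed the interaction, where 1399 of all genes were lower, and 0 differed in watered leaves. Watered and drought groups share no numbers. The cause of these shifts was not tested, except that fits on fewer samples have fewer degrees of freedom. No named gene called changed sign. Depth limits the weak copies: the 6 untested members held at most 15 fragments.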
